A study of Mus musculus with 6 samples.

Results

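Runx1 peaks of lung fibroblasts 56 days after bleomycin (D56) were compared with those 14 days after it (D14), to describe where Runx1 calls remained and where they did not as the injury resolved. Every peak on chromosomes 1 to 19 was used, 55378 at D14 and 14704 at D56, or 70082 of the 96399 peaks in the series. A D14 peak was counted as kept when a D56 peak overlapped it by at least 1 bp, and a gene as carrying a peak when the peak lay in it or up to 10 kb beyond its ends. Both time points used mice of the genotype Col1a2-CreERT2;mTmG that received bleomycin into the trachea, and green (GFP+) lung cells went into ChIP-seq, the sequencing of DNA pulled down with an antibody, here against Runx1. Green marks cells, and descendants of cells, in which the Col1a2-driven inducible Cre was active, so the label follows a lineage and not a current state. Each time point had 1 Runx1 library and 1 input. The sources used here do not give the number or age of the mice, any pooling or the time of Cre induction. With 1 library per time point there was no replicate, so differences carry no test, and the 95% Wilson intervals cover counting error only. An uninjured (sham) library of the same genotype served as a reference where stated.

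Runx1 is a DNA-binding transcription factor of the RUNX family, which holds the DNA tightly together with the subunit Cbfb and recruits coactivators or corepressors. It is best known for its part in blood cell formation. RUNX sites often lie near sites of other factors, among them AP-1, the dimers of Fos and Jun proteins that respond to growth and stress signals. In injured lung, fibroblasts make collagen-rich matrix, and some take on smooth muscle genes and are then called myofibroblasts.

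The promoters of Lrrc15, Meox2, Zfp36l1 and Dpt show the calls at base level. They were chosen after their values were seen, to show both outcomes at genes of the lists with a motif in the window. Each is the 250 bases before the gene's start from RefSeq (GRCm38.p6), 5′ to 3′ on the gene's strand. Capitals mark RUNX motifs (TGTGGT or TGCGGT, or ACCACA or ACCGCA on the other strand) and AP-1 motifs (TGANTCA). A match is a description of the letters and not a bound site.
Lrrc15: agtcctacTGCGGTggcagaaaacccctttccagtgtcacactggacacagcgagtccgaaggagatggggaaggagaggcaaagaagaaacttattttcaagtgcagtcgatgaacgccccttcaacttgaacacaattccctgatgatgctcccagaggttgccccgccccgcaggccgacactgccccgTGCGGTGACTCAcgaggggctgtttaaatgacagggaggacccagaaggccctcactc
Meox2: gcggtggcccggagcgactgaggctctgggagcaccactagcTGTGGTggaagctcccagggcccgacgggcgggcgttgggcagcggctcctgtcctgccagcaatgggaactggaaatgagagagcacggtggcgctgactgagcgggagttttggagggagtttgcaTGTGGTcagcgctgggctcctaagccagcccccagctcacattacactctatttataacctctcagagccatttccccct
Zfp36l1: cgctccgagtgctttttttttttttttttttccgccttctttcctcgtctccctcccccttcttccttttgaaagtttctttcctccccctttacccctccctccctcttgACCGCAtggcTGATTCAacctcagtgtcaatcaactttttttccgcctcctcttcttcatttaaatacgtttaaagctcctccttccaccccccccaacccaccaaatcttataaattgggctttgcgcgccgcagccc
Dpt: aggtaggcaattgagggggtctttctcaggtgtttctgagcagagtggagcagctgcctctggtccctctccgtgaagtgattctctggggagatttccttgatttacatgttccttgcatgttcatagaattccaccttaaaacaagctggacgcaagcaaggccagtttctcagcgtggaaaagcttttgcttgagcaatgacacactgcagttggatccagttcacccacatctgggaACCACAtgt
Lrrc15, a membrane protein of fibrotic fibroblasts, lies on the minus strand with this window at chr16:30283255-30283504. Its only D14 peak had a pileup of 23, its window holds TGCGGT at bases -242 and -58 and TGACTCA at -53, which shares 1 base with the second RUNX motif, and no D56 peak was called. Meox2, a mesenchymal homeobox factor, is on the plus strand (chr12:37108290-37108539). Its D14 peak had a pileup of 56 and a fold of 12.8 with the summit at base -71, close to a TGTGGT at -80, and again no D56 peak was called. Zfp36l1, which speeds the decay of AU-rich mRNAs, is on the minus strand (chr12:80113014-80113263). Its D14 peak over the start had a pileup of 92, and 2 D56 peaks overlapped it, with pileups of 34 and 19. Dpt, the matrix protein dermatopontin, is on the plus strand (chr1:164796413-164796662). Its D14 peak there had a pileup of 41 and its D56 peak a pileup of 16. The pileup is the number of ChIP fragments stacked at a summit after scaling, and the fold is its ratio to the local background. Both are the authors' own values per peak, scaled within each library, so they rank peaks inside a list and are not compared between D14 and D56.

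The lists differed in length by more than the sequencing did. D14 had 3.77 times as many peaks as D56, 1.59 times the ChIP tags (78744701 against 49669125) and 2.47 times the input tags (49312043 against 19949187). Depth and time cannot be told apart with 1 library each, so gene lists are also given at equal length, with D14 cut to the 14704 peaks of highest pileup, the length of the D56 list. Of 8 genes that define lung fibroblasts 7 carried a peak on both days (38 peaks at D14 and 9 at D56) and Lum on neither, where 75.5% of all protein-coding genes carried a D14 peak and 55.5% a D56 peak. Genes of other cells also carried D14 peaks, at 7 of 8 endothelial, 6 of 8 epithelial, 5 of 8 leukocyte and 2 of 4 mesothelial markers, and at D56 the numbers were 4, 2, 2 and 0. With peaks at most genes, these counts do not establish the cell type. A peak does not say in which cells of a library Runx1 was bound, and the part of other cells in the lists was not tested.

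Most D14 peaks were not called at D56, and nearly every D56 peak had been called at D14. Of the 55378 D14 peaks, 14130 were kept (25.5%, interval 25.2 to 25.9). In the other direction 14612 of 14704 D56 peaks overlapped a D14 peak (99.4%, 99.2 to 99.5), which left 92 D56 peaks without one, and 70 of those 92 overlapped a sham peak. Shared peaks sat at the same place: over 14672 overlapping pairs the summits lay a median of 28 bp apart, with the middle 50% of pairs between 11 and 54 bp, and 93.7% lay within 200 bp. The D56 peak was the shorter one in 96.5% of pairs, with a median length of 309 bp against 607 bp. D14 peaks that also overlapped a sham peak were kept in 60.1% of 22723 cases, and those that did not in 1.44% of 32655.

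Peak height at D14 went along with being kept. Kept D14 peaks had a median pileup of 93 and a median fold of 12.9, and those not kept a median pileup of 29 and a median fold of 4.94. By decile of D14 pileup the kept share was 0.632% in decile 1 (the lowest), 4.88% in decile 5, 39.8% in decile 8, 78.9% in decile 9 and 98.8% in decile 10. In the upper deciles, peaks within 1 kb of a gene end had a higher kept share than others of like height. In decile 9, 87.2% of gene-end peaks were kept (85.9 to 88.4), against 71.3% inside genes (69.0 to 73.5) and 70.6% outside them (68.1 to 73.0). Over all heights the shares were 55.4% of 14142 gene-end peaks, 15.4% of 21461 peaks inside genes and 15.1% of 19775 outside. By chromosome the kept share ran from 21.4% on chromosome 13 to 29.5% on chromosome 7.

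**Figure D1:**
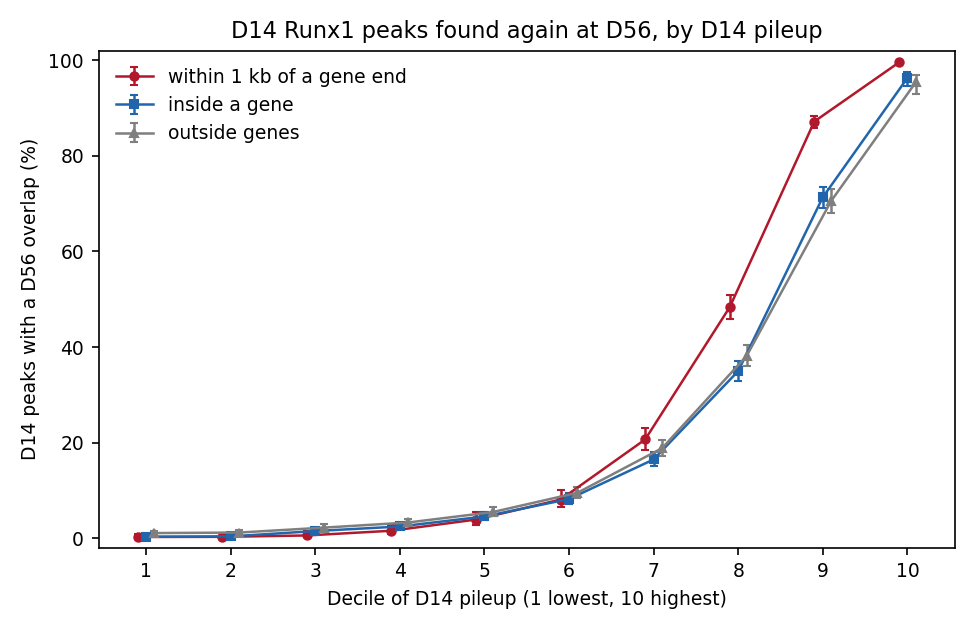
Percent of D14 peaks with a D56 overlap (vertical axis) in each decile of D14 pileup (horizontal axis, 1 lowest, 10 highest), for peaks within 1 kb of a gene end, inside a gene and outside genes; bars are 95% Wilson intervals. All 3 curves stay low up to decile 5 and reach 99.5%, 96.3% and 95.4% in decile 10, with the gene-end curve above the others in deciles 8 and 9 (48.4% and 87.2%).

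Among peaks of equal rank most of the D14 list was still called. With D14 cut to 14704 peaks, at a pileup of 56, 11501 peaks were kept (78.2%, 77.5 to 78.9) and 3203 were not. The last peaks inside the cut had a fold of 12.2 and the first outside it 11.9, at the same pileup of 56, where 31 of 410 tied peaks fell inside. Conversely 11995 D56 peaks met the cut D14 list (81.6%, 80.9 to 82.2) and 2709 did not, although 2617 of those 2709 met a lower D14 peak. The split by place remained, with 89.6% of gene-end peaks of the cut list kept, 64.4% inside genes and 63.4% outside. Kept and not kept peaks differed in their overlap with sham. Of the cut D14 peaks that were kept, 92.1% also met the equally long sham list, and of those not kept 30.2%. Of the D56 peaks outside the cut D14 list, 58.5% met that sham list.

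Every protein-coding gene with a D56 peak also had a D14 peak. Of 20661 genes on these chromosomes, 15592 carried a D14 peak (75.5%) and 11475 a D56 peak (55.5%). All 11475 were among the 15592, a share of 73.6% (72.9 to 74.3). Genes with 1 D14 peak had a D56 peak in 55.7% of cases, those with 3 to 4 in 80.2% and those with 10 to 48 in 91.8%. At equal list length 11999 genes carried a D14 peak and 11070 of them a D56 peak (92.3%), while 929 had a D14 peak alone and 405 a D56 peak alone. Neighbouring genes share peaks, so genes are not independent counts.

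The genes with most D14 peaks and none at D56 were long genes with many peaks of modest height. Peli2, a Toll-receptor pathway ubiquitin ligase, had 23 D14 peaks, and Antxr1, a collagen-binding receptor, 22. The polarity gene Pard3b had 21, the microfibril-associated Thsd4 20, the splicing regulator Rbfox1 19 and the endosomal exchanger Slc9a9 18. Bmper, a secreted BMP modulator, and Adam12, a metalloprotease of injured mesenchyme, had 17 each. Map3k20 and Rap1gap2 had 16 each. Their highest D14 pileups lay between 43 at Adam12 and 90 at Peli2 and Map3k20, and in the cut list they carried 0 to 3 peaks. These 10 genes had 1 to 11 sham peaks. They head a list chosen for having no D56 peak, so their absence at D56 is the rule and not a finding.

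The genes with most D56 peaks had, as a rule, more at D14. Gse1, a corepressor-complex gene, had 48 peaks at D14 and 13 at D56, Pakap 42 and 11, the recombination gene Rad51b 40 and 10, and Nfia, a nuclear factor I gene, 34 and 10. Maml3, a Notch coactivator, had 26 and 10, Synpo 22 and 11, and Midn 16 and 10. Iqcn had 20 and 14, and its neighbour Jund 6 and 9. Jund was the exception in this group, with more D56 than D14 peaks. Its 6 D14 peaks were all kept, and its peaks lie within the window of Iqcn too. Maps of 4 loci set these patterns side by side. At Runx1 itself, whose counts were 24 and 2, the kept pair included the highest D14 summit (pileup 117), while D14 summits of 75, 68 and 63 had no D56 overlap. At Nfia the summits of kept D14 peaks lay between 111.54 and 426.24 kb from the left end of the gene, some in clumps and some alone. At Bcl3, a nuclear cofactor of NF-kappaB chosen after its values were seen, 7 of 9 D14 peaks were kept, each with its D56 summit close by.

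**Figure D2:**
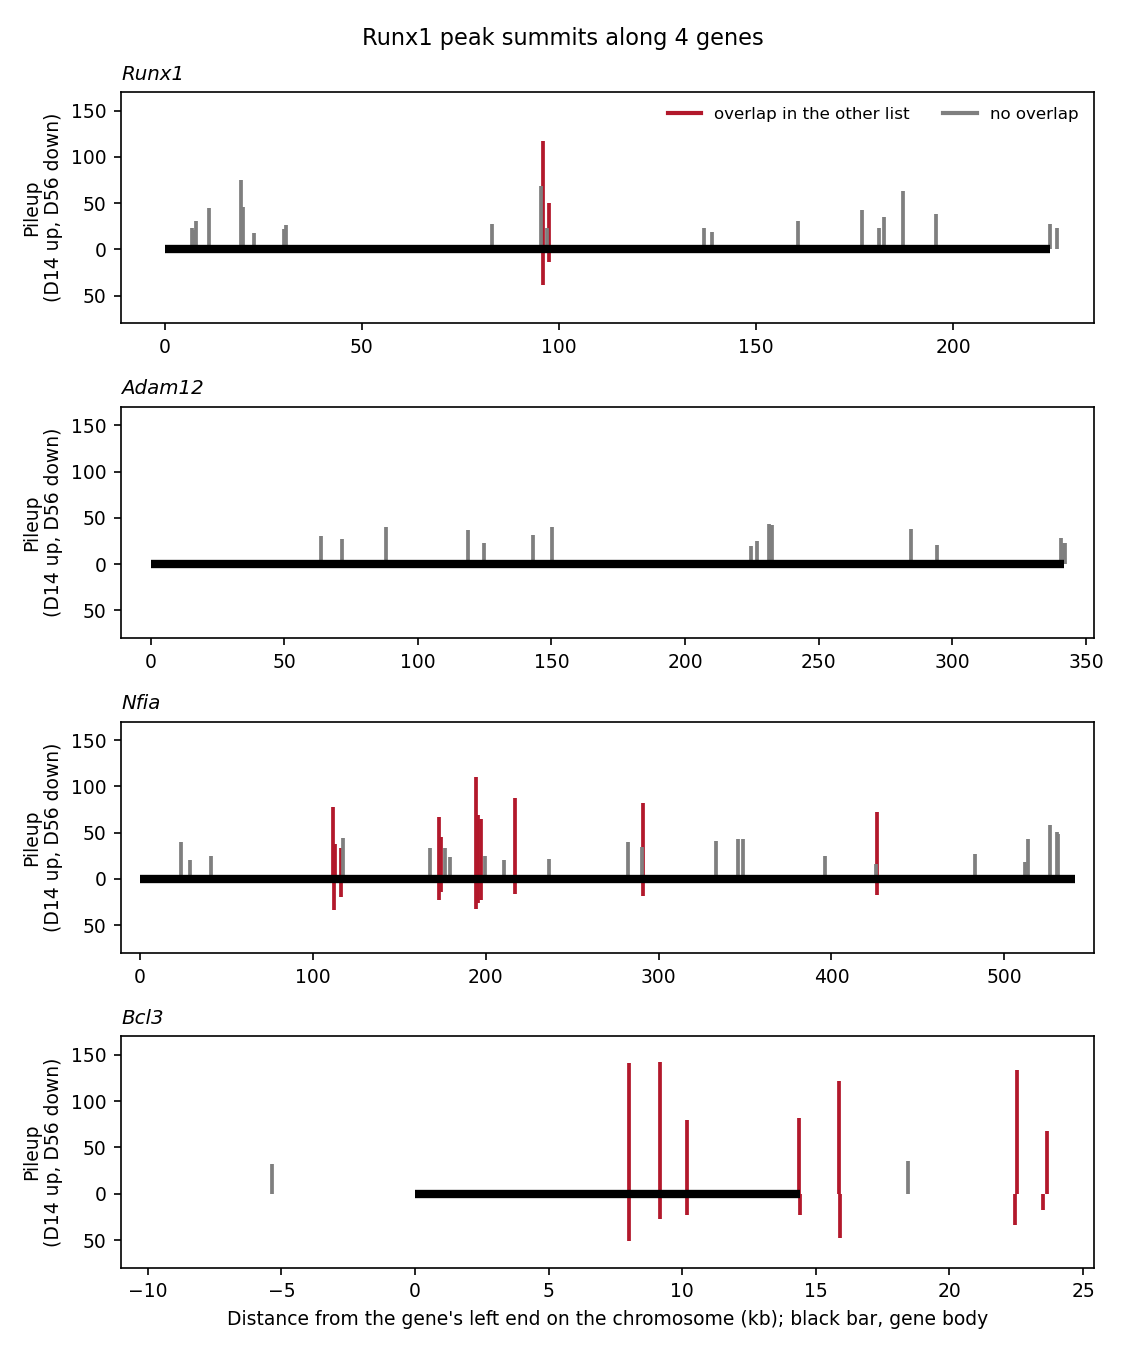
Summits of Runx1 peaks along Runx1, Adam12, Nfia and Bcl3: distance from the gene's left end in kb (horizontal), pileup with D14 drawn up and D56 drawn down (vertical, each in its own library's scale), red where the other list overlaps and grey where it does not. Runx1 has 24 summits up and 2 down, Adam12 17 and 0, Nfia 34 and 10, and Bcl3 9 and 7.

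Single peaks at the top of each list gave few gene-level contrasts. The highest D14 pileup without a D56 overlap was 727, at chr15:75086750-75086958, 21.3 kb from Ly6c2, but its fold was only 1.57, and the 3 such peaks inside Sfi1 (pileups 154, 137 and 136) had folds of 2.81, 2.67 and 1.94. These summits were high in a place where the local background was high too. Some peaks high on both measures were near Tcf20, a chromatin-associated coregulator (pileup 156, fold 23.6, at the gene end), Rimbp3 (184, fold 18.6, 8.41 kb away) and Dipk1b (159, fold 14.6, 10.6 kb away), and these 3 overlapped a sham peak. Others lay on chromosomes 8 and 18, with pileups of 266 and 144 and folds of 15.7 and 18.2. These had no named protein-coding gene within 100 kb and also overlapped sham. At D56 the highest pileup, 361 with a fold of 4.01, had no named protein-coding gene within 100 kb (chr17:39843010-39848805), and neither had those of 181 and 122. Genes of other kinds were not searched. The other 7 of the 10 highest lay at or near Lars2, a mitochondrial tRNA synthetase (pileup 215, fold 4.71), the centromere gene Hjurp (184, fold 9.78), Filip1l (167, fold 4.56), Zc3h7a (128, fold 6.82), Axin2 (124, fold 2.93, 61.2 kb from the gene), the ring-finger gene Rnf44 (99, fold 24.1) and Cdk8 (93, fold 3.96). All 10 overlapped sham and D14. Apart from those at Hjurp, Zc3h7a and Rnf44, their folds lay below the median of all D56 peaks (6.78). Those summits too were high over a high local background. The 5 highest D56 peaks without a D14 overlap had pileups of only 17 to 22. They lay inside Stard13, Grk5 and Igsf10 and 18.7 kb from Trabd2b, and 1 had no named protein-coding gene within 100 kb. All but the peak near Trabd2b overlapped a sham peak. At equal length the highest D56 peaks outside the cut D14 list had pileups of 28 to 32, near Tmem107, Gtf3c1, Clvs1, Adh7, F3, Pih1d1 and Pdia4, and each overlapped a sham peak.

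Genes that mark fibrotic fibroblasts had low kept shares. Of 22 markers, 20 carried a D14 peak and 7 of the 20 a D56 peak, where 73.6% of all genes with a D14 peak carried one at D56. At equal length the contrast in gene number was smaller, with 9 markers carrying a D14 peak and 7 a D56 peak, 6 of them on both days, where 92.3% of all genes with a peak in the cut D14 list carried one at D56. In the full lists 10 of their 136 D14 peaks were kept (7.35%, 4.04 to 13.0), against 29.3% over all peaks at protein-coding genes. Peaks of the same pileup decile and gene-end class, called like peaks from here on, were kept in 14.3% of cases. In the cut list 8 of 19 peaks were kept (42.1%, 23.1 to 63.7), against 80.7% over all genes and 70.6% for like peaks. This was the lowest of the 22 gene lists with at least 15 cut D14 peaks, whose shares ran from 42.1% to 90.0%. Several lists share genes, and this list was known from earlier results to stand low, so its position is not independent evidence. The counts behind it rest on a few loci.

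Pmepa1, which is induced by TGF-beta and restrains its signalling, had 22 D14 peaks and 1 at D56, with 1 of its 4 cut peaks kept. Adam12 had 17 and 0. Ltbp2, a microfibril-associated matrix protein, had 16 and 2, and the adhesion molecule Ncam1 11 and 0. Col12a1, a fibril-associated collagen, had 8 and 2, Ddah1, which degrades methylated arginines, 6 and 1, and the tendon factor Scx 5 and 0. Follistatin (Fst), an activin trap, had 5 and 0, and Col8a1 4 and 0. The smooth muscle actin gene Acta2 had 3 D14 peaks, the highest with a pileup of 79, and none at D56. Tagln, Tnc, Spp1 and Postn had 2 each and none at D56, and Cthrc1, Lrrc15 and Grem1 had 1 and none. Sfrp1, a Wnt antagonist, and Comp, a cartilage matrix protein, had 2 at D14 and 1 at D56. Fap and Aspn had none on either day.

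**Figure D3:**
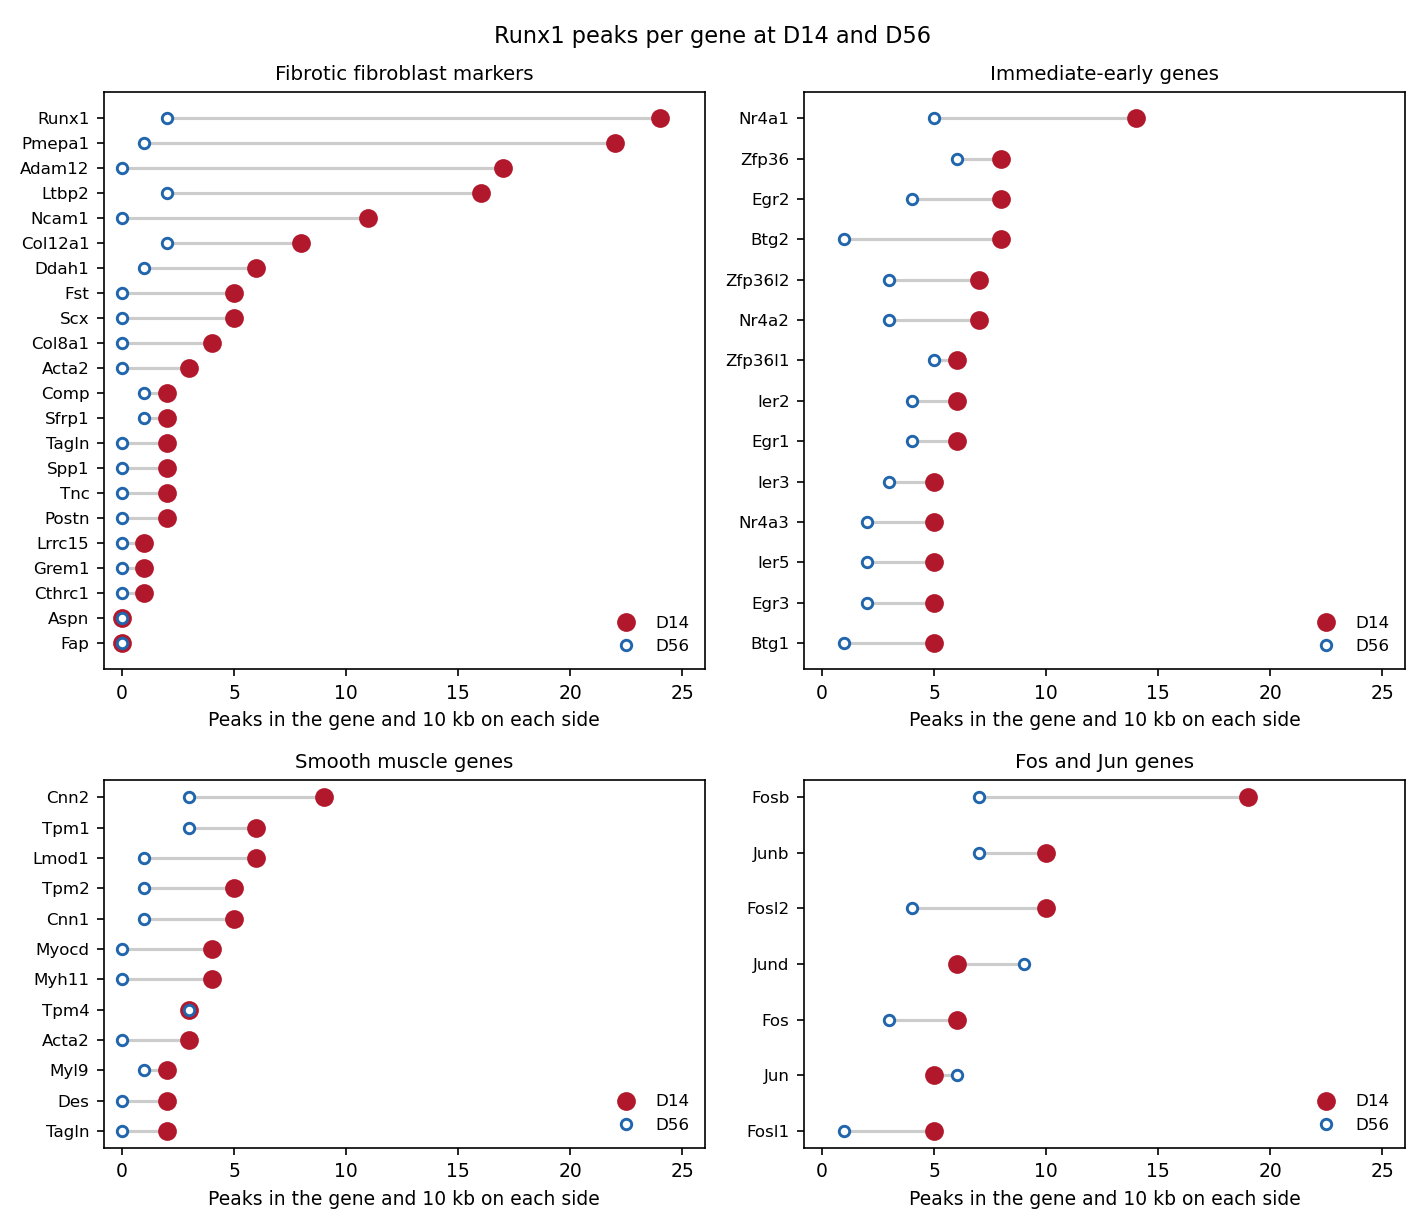
Number of Runx1 peaks in the gene and the 10 kb on each side (horizontal) at D14 (filled red) and D56 (open blue) for each gene (vertical) of 4 groups: fibrotic fibroblast markers, immediate-early genes, smooth muscle genes, and Fos and Jun genes. Of the 22 fibrotic markers 15 have no D56 peak, while all 14 immediate-early genes and all 7 Fos and Jun genes have one. Of all protein-coding genes 55.5% have one.

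Matrix genes had a kept share below that of all genes and, in the full lists, above that of like peaks. Many of their D56 peaks lay outside the cut D14 list. Of 45 collagens and matrix proteins, 44 carried a D14 peak and 36 a D56 peak, where 73.6% of all genes with a D14 peak had one. At equal length 32 carried a D14 peak and 36 a D56 peak, so the order of the 2 counts turned. Of their D14 peaks 78 of 332 were kept (23.5%, 19.3 to 28.3), against 29.3% over all genes and 18.7% for like peaks. In the cut list 44 of 66 were kept (66.7%, 54.7 to 76.8), against 80.7% and 70%. In the other direction 46 of their 80 D56 peaks met the cut D14 list (57.5%, 46.6 to 67.7), against 85.7% over all genes and 72.7% for like peaks, and 27 of the 34 that did not met the equally long sham list. Among collagens of thick fibrils, Col1a1 had 8 D14 peaks and 3 at D56, Col1a2 4 and 1, Col3a1 4 and 1, and Col5a2 3 and 0. The cell-binding glycoproteins Thbs1 and Fn1 had 24 and 3, and 4 and 1. Of the basement membrane chains, Col4a1 had 14 and 4, Col4a2 22 and 7, Hspg2 15 and 3, and Lamb1 8 and 0. Elastic fibre genes had 8 of 22 D56 peaks in the cut D14 list. Fbn1, the main microfibril protein, had 24 D14 peaks and 6 at D56, of which 1 met the cut D14 list. Fbln1 had 14 and 3 with none there, and Eln, elastin itself, 6 and 4 with 2 there. Collagen-processing and protease genes kept 68 of 228 D14 peaks (29.8%) and 51 of 63 cut peaks (81.0%). The procollagen protease Adamts2 had 22 and 6 and kept 6 of 7 cut peaks, the crosslinking oxidase Lox 5 and 1, and Plod1, a collagen lysyl hydroxylase, 5 and 4.

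Contractile genes differed by role in how many genes carried a D56 peak, and the intervals of their kept shares overlapped. Of 12 smooth muscle genes all carried a D14 peak and 7 a D56 peak, where 73.6% of all genes with a D14 peak had one, while all 11 actin regulators and all 10 focal adhesion genes carried one on both days. At equal length 10 smooth muscle genes carried a D14 peak and 7 a D56 peak, with 10 of 17 cut peaks kept (58.8%, 36.0 to 78.4; 74.3% for like peaks). Smooth muscle genes kept 13 of 51 D14 peaks (25.5%, 15.5 to 38.9), actin regulators 24 of 83 (28.9%, 20.3 to 39.4) and focal adhesion genes 36 of 161 (22.4%, 16.6 to 29.4). Smooth muscle genes thus had the fewest D14 peaks per gene of these roles. Among all genes the share with a D56 peak rose with D14 peak number, from 55.7% at 1 peak to 91.8% at 10 to 48. The part of peak number in the contrast between roles was not tested. Over the list of 33 genes 72 of 292 D14 peaks were kept (24.7%, 20.1 to 29.9) and 57 of 85 in the cut list (67.1%, 56.5 to 76.1), against 29.3% and 80.7% over all genes and 25.1% and 69.4% for like peaks. The smooth muscle myosin Myh11 had 4 D14 peaks and none at D56, as did Myocd, the cofactor that drives smooth muscle genes. The intermediate filament gene Des had 2 and 0. Caldesmon (Cald1) had 17 and 2, and none of its 4 cut D14 peaks was kept. The non-muscle tropomyosin Tpm4 kept all 3 of its peaks (pileups up to 240 at D14 and 58 at D56). The focal adhesion genes Tns1, Tns3 and Pxn had 39 and 9, 35 and 5, and 18 and 6, and Pxn kept all 6 of its cut peaks. Srf, which drives actin genes, had 3 and 2, and Zyx 7 and 2.

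AP-1 genes were called on both days without exception. All 29 genes of AP-1 and related bZIP factors carried a peak at D14 and at D56, where 75.5% and 55.5% of all genes did. Of their D14 peaks 67 of 186 were kept (36.0%, 29.5 to 43.1), against 29.3% over all genes and 30.4% for like peaks. In the cut list 53 of 60 were kept (88.3%, 77.8 to 94.2), against 80.7% over all genes and 80.0% for like peaks. The 3 Jun genes kept 16 of 21 D14 peaks and all 10 cut ones, and together had 22 D56 peaks: Jun 5 at D14 and 6 at D56, Junb 10 and 7, and Jund 6 and 9. Of the 22 D56 peaks 11 met the cut D14 list. The 4 Fos genes kept 14 of 40, with Fosb at 19 and 7, Fosl2 at 10 and 4, Fos at 6 and 3, and Fosl1 at 5 and 1. Bach2, a repressor that binds related sites, had 28 and 6, and the small Maf gene Maff 8 and 4. The 4 CEBP genes kept 4 of 24, and Cebpb had 11 D14 peaks and 1 at D56. In the D56 direction 60 of the list's 80 peaks met the cut D14 list (75%, 64.5 to 83.2), against 85.7% over all genes and 82.9% for like peaks, and 14 of the 20 that did not met sham.

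Immediate-early and stress genes, which are transcribed within minutes of a stimulus and also during tissue dissociation, had kept shares close to those of like peaks. All 37 carried a D14 peak and 36 a D56 peak, where 73.6% of all genes with a D14 peak had one. At equal length 36 carried a D14 peak and 36 a D56 peak, where 92.3% of all genes with a cut D14 peak had one. They kept 80 of 215 D14 peaks (37.2%, 31.0 to 43.8; 35.9% for like peaks) and 68 of 78 in the cut list (87.2%, 78.0 to 92.9; 86.2% for like peaks). In the D56 direction 75 of 87 peaks met the cut D14 list (86.2%, 77.4 to 91.9), against 85.7% over all genes. All 14 immediate-early genes carried a peak on both days. Nr4a1, an orphan nuclear receptor, had 14 D14 peaks and 5 at D56, Egr1 6 and 4, Ier2 6 and 4, Zfp36 8 and 6, and Zfp36l1 6 and 5. Dusp1, a phosphatase that turns off MAP kinases, had 13 and 6. Btg2, an antiproliferative gene, had 8 and 1.

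Inflammatory genes had a kept share of 89.6% at equal length, above that of all genes (80.7%) though the interval reaches it. Of 47 genes 44 carried a D14 peak and 40 a D56 peak, and at equal length 40 and 40. Over all genes 75.5% carried a D14 peak, and 73.6% of those a D56 peak (92.3% at equal length). The inflammatory genes kept 68 of 206 D14 peaks (33.0%, 27.0 to 39.7) and 60 of 67 in the cut list (89.6%, 80.0 to 94.8; 81.9% for like peaks). The interferon-response and STAT factors kept all 18 of their cut peaks, and Irf1 kept 4 of 5 D14 peaks. Bcl3 had 9 and 7, Socs3, which restrains cytokine receptors, 7 and 3, and Stat3 3 and 1. The acute-phase genes Lcn2 and Saa3 had 2 and 2, and 4 and 2. Il6 had 1 D14 peak and 2 at D56, Il11, a profibrotic cytokine, 7 and 3, and Ccl2 5 and 2. Nfkbia, the NF-kappaB inhibitor, had 17 and 1 and the chemokine Cxcl14 4 and 0.

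TGF-beta and BMP genes were close to like peaks and below all genes in kept share. Of 53 genes all carried a D14 peak and 46 a D56 peak, and at equal length 46 and 46. Of all genes 75.5% carried a D14 peak, and 73.6% of those a D56 peak (92.3% at equal length). The TGF-beta and BMP genes kept 94 of 397 D14 peaks (23.7%, 19.8 to 28.1), against 29.3% over all genes and 23.4% for like peaks. In the cut list they kept 80 of 103 (77.7%, 68.7 to 84.6), against 80.7% and 75.1%. By role, D56 peaks were called at 7 of 11 ligands, 10 of 10 receptors, 5 of 5 SMADs, 9 of 9 genes of latency and activation, 9 of 12 inhibitors and 6 of 6 targets. These roles are small, and the share over all genes with a D14 peak was 73.6%. Tgfb1 had 10 D14 peaks and 4 at D56, Tgfb2 6 and 2, and Tgfb3 4 and 3. The activin subunits Inhba and Inhbb and Bmp2 had 3 each at D14 and none at D56, and the BMP antagonist Nog had 4 and none. Of the receptors, Tgfbr1 had 3 and 1, Tgfbr2 9 and 1, and the coreceptor Tgfbr3 22 and 4. The signal carrier Smad3 had 22 and 6 and the inhibitory Smad7 16 and 4. Bambi, a pseudoreceptor, had a single peak on each day (pileups 215 and 44), as did Smad2 (152 and 38). Ltbp1, which tethers latent TGF-beta to matrix, had 25 and 4.

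Fibroblast identity genes had kept shares below all genes (29.3%) and above like peaks in the full lists, and many of their D56 peaks lay outside the cut D14 list. All 25 alveolar fibroblast genes, of the gas-exchange region, carried a D14 peak and 16 a D56 peak, but at equal length 14 carried a D14 peak, so the order turned. Over all genes 75.5% carried a D14 peak, and 73.6% of those a D56 peak (92.3% at equal length). The alveolar genes kept 29 of 165 D14 peaks (17.6%, 12.5 to 24.1; 13.2% for like peaks) and 16 of 23 cut peaks (69.6%, 49.1 to 84.4; 59.4% for like peaks). Of their D56 peaks 18 of 32 met the cut D14 list (56.2%, 39.3 to 71.8), against 85.7% over all genes and 69.4% for like peaks. Limch1 had 22 and 2, Macf1 20 and 3, the lung T-box genes Tbx5 and Tbx4 11 and 0, and 6 and 0, and Pdgfra 7 and 1. Foxf1, a lung mesenchyme factor, kept calls with 3 and 3, and the carboxylesterase gene Ces1d had 2 and 2. Of 22 adventitial genes, of the vessel and airway cuff, 20 carried a D14 peak and 14 a D56 peak, and at equal length 10 and 14. They kept 26 of 105 D14 peaks (24.8%, 17.5 to 33.8; 18.1% for like peaks) and 13 of 19 cut peaks (68.4%, 46.0 to 84.6; 71.7% for like peaks). Of their 27 D56 peaks 14 met the cut D14 list (51.9%, 34.0 to 69.3; 74.3% for like peaks), and 10 of the 13 that did not met sham. Dpt kept 3 of 3, the actin-severing Gsn had 10 and 5, and the hyaluronan synthase Has1 11 and 5. The stem-like markers Pi16 and Ly6a had 1 and 0, and 4 and 0. These lists overlap the matrix list, with Mfap4 and Col15a1 among the shared genes.

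**Figure D4:**
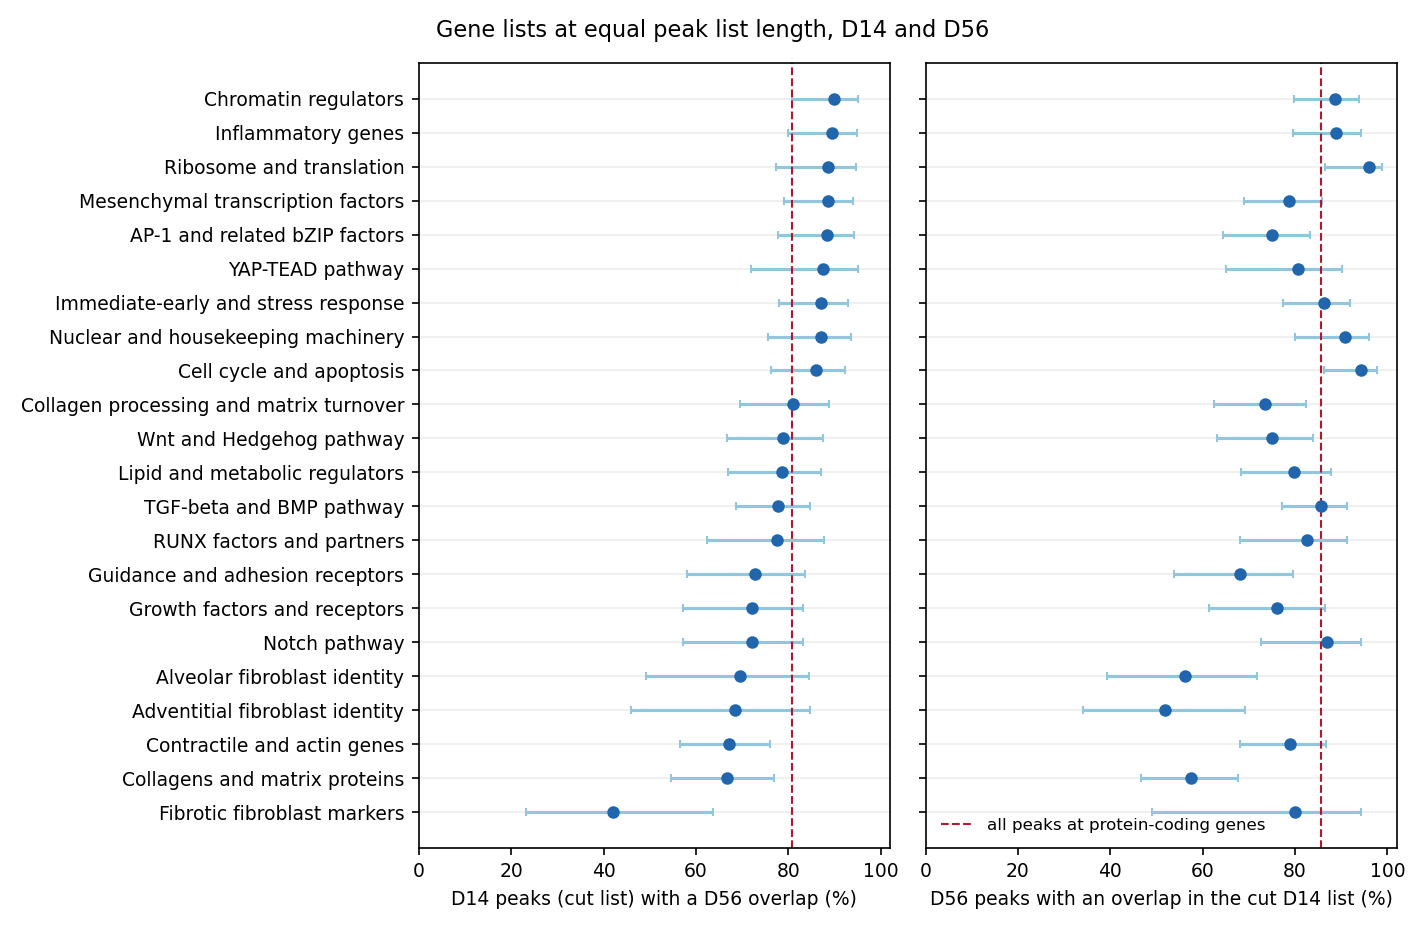
Equal list length: percent of cut D14 peaks with a D56 overlap (left) and percent of D56 peaks with an overlap in the cut D14 list (right) for the 22 gene lists with at least 15 cut D14 peaks (vertical), with 95% Wilson intervals; dashed lines mark all peaks at protein-coding genes (80.7% and 85.7%). Fibrotic markers are lowest on the left (42.1%), and adventitial (51.9%), alveolar (56.2%) and matrix genes (57.5%) are lowest on the right.

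Mesenchymal transcription factors kept 88.6% of their peaks at equal length, where all genes had 80.7%. Of 40 factors all carried a D14 peak and 30 a D56 peak, and at equal length 31 and 30. Among all genes with a D14 peak 73.6% had one at D56, and 92.3% did at equal length. The 40 factors kept 82 of 289 D14 peaks (28.4%, 23.5 to 33.8; 23.5% for like peaks) and 62 of 70 in the cut list (88.6%, 79.0 to 94.1; 75.3% for like peaks). The 8 factors of epithelial-mesenchymal transition kept 3 of 30 D14 peaks (10.0%, 3.46 to 25.6; 14.9% for like peaks) and 3 of 5 cut peaks, and at equal length 4 of them carried a D14 peak and 3 a D56 peak. Zeb1 had 5 D14 peaks, Zeb2 9, Prrx1 2, Prrx2 5 and Twist1 1, all with none at D56, while Twist2 had 4 and 1, Snai1 3 and 1, and Snai2 1 and 1. The 32 factors of lung mesenchyme kept 79 of 259 D14 peaks (30.5%, 25.2 to 36.4; 24.5% for like peaks) and 59 of 65 in the cut list (90.8%, 81.3 to 95.7; 75.4% for like peaks). The difference between the roles was not tested. Nfia had 34 and 10, Klf13 12 and 8, Klf9 6 and 4, Creb3l1, which activates collagen genes, 8 and 7, and Tbx2 11 and 6. The ETS repressor Elk3 had 10 and 0.

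Growth factors and receptors kept 40 of 219 D14 peaks (18.3%, 13.7 to 23.9; 18.6% for like peaks) and 31 of 43 cut peaks (72.1%; 69.7% for like peaks). All 36 carried a D14 peak and 21 a D56 peak, and at equal length 20 and 21. Among all genes with a D14 peak 73.6% had one at D56, and 92.3% did at equal length. The 6 PDGF genes kept 3 of 29, with Pdgfrb at 9 and 1 and Pdgfa at 7 and 1. Igf1, an insulin-like growth factor, had 8 and 1, and Fgf10, a lung bud growth factor, 3 and 0. Guidance and adhesion receptors kept 48 of 287 (16.7%, 12.9 to 21.5; 15.4% for like peaks) and 32 of 44 cut peaks (72.7%; 70.8% for like peaks), with Slit3 at 33 and 3 and Robo1 at 10 and 0. Both lists thus lay below all genes and near their like peaks. Wnt and Hedgehog genes kept 59 of 256 (23.0%) and 45 of 57 cut peaks (78.9%). All 9 Wnt receptors carried a D56 peak and 5 of 8 ligands did, beside 73.6% of all genes with a D14 peak. Wnt5a had 7 and 1, Wnt2 4 and 1, and Lef1 3 and 0. Notch genes kept 36 of 133 (27.1%) and 31 of 43 cut peaks (72.1%), and YAP-TEAD genes 35 of 132 (26.5%) and 28 of 32 (87.5%). Lipid and metabolic regulators kept 61 of 232 (26.3%) and 48 of 61 (78.7%). Within them the genes of cyclic nucleotide signalling kept 13 of 99 (13.1%; 13.8% for like peaks), with Pde4d at 35 and 2.

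Genes of the basal machinery had the highest kept shares of the full lists. At equal length chromatin regulators (90.0%) and inflammatory genes (89.6%) stood above them. Ribosome and translation genes kept 49 of 89 D14 peaks (55.1%, 44.7 to 65.0; 54.8% for like peaks) and 47 of 53 cut peaks (88.7%). Nuclear and housekeeping genes kept 52 of 106 (49.1%, 39.7 to 58.4; 48.1% for like peaks), with 47 of 54 cut peaks (87.0%). All 31 carried a peak on both days, where 75.5% of all genes carried a D14 peak and 55.5% a D56 peak. Chromatin regulators kept 72 of 200 (36.0%) and 63 of 70 cut peaks (90.0%, 80.8 to 95.1; 79.7% for like peaks). The histone demethylase Kdm6b had 11 and 8 and the acetyl-lysine reader Brd2 6 and 5, whereas the histone deacetylase Hdac9 had 5 and 0. Cell cycle and apoptosis genes kept 66 of 172 (38.4%) and 62 of 72 cut peaks (86.1%), with Cdkn1a at 3 and 2 and Cdk6 at 9 and 0. RUNX factors and partners kept 38 of 152 (25%, 18.8 to 32.4; 27.1% for like peaks) and 31 of 40 cut peaks (77.5%). Among them 13 corepressors kept 29 of 84 D14 peaks (34.5%; 32.9% for like peaks), and the 3 RUNX factors 3 of 42 (7.14%; 13.4% for like peaks).

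Families defined by gene symbols had kept shares from 11.7% to 60% over 42 families, against 29.3% over all genes. In the cut list the share over all genes was 80.7%. Of all protein-coding genes 75.5% carried a D14 peak and 55.5% a D56 peak. Subunits of respiratory complex I kept 63 of 105 D14 peaks (60%; 58.9% for like peaks) and 62 of 66 cut peaks, and ribosomal proteins 119 of 203 (58.6%; 56.3% for like peaks) and 112 of 123. Histone genes kept 56 of 101 (55.4%, 45.7 to 64.8; 40.8% for like peaks) and 47 of 49 cut peaks (95.9%, 86.3 to 98.9; 76.7% for like peaks). Kruppel-like factors carried a peak at the same 14 of 16 genes on both days and kept all 27 of their cut peaks (87.5 to 100). Wnt ligands kept 11 of 77 D14 peaks (14.3%; 15.8% for like peaks) and 7 of 15 cut peaks (46.7%, 24.8 to 69.9; 65.4% for like peaks). This cut share was the lowest among the 33 families with at least 15 cut peaks, and its interval reaches that of like peaks. Glutamate receptors kept 7 of 60 (11.7%; 14.7% for like peaks) and 6 of 9 cut peaks. Cadherins and protocadherins kept 18 of 127 (14.2%; 14.4% for like peaks) and 13 of 17. Hox factors had a D14 peak at 28 of 39 genes and a D56 peak at 15. Of their 11 D56 peaks 5 met the cut D14 list (45.5%, 21.3 to 72.0; 87.2% for like peaks). The other 6 all met the equally long sham list. A D56 peak without a cut D14 peak was carried by 7 Hox genes, and by 1.96% of all genes. The 15 Hox genes shared 11 D56 peaks, so the 7 genes are not independent counts. Olfactory receptors, not used by fibroblasts, carried D14 peaks at 44 of 1104 genes and D56 peaks at 9.

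Promoter sequence was then compared between starts that kept a peak and starts that did not. Windows of 300 bases (250 before to 50 after the start) came from RefSeq for 20084 starts. A D14 peak met 10993 of them (54.7%) and a D56 peak met 7718 of those 10993 (70.2%). A RUNX motif (TGTGGT or TGCGGT, both strands) was in 20.3% of windows with a peak on both days (19.5 to 21.3), 20.7% of those with a D14 peak alone (19.3 to 22.1), 22.7% of those with none and 21.5% of all. These shares lie close together. The AP-1 motif TGANTCA was in 3.63% of windows with a peak on both days (3.23 to 4.07), 6.69% with a D14 peak alone (5.88 to 7.59), 10.1% with none and 7.06% of all. The order was the same in the cut list, with 3.61% and 6.05% for both days and D14 alone. GC content moves with these groups, with medians of 63.3% for both days, 60.7% for D14 alone and 49.0% for no peak. Within windows of up to 50% GC the AP-1 shares were 6.12% and 14.4%, from over 50% to 60% 4.88% and 7.67%, from over 60% to 70% 3.26% and 4.97%, and over 70% 2.01% and 2.66%. Windows with no peak had AP-1 shares of 12.6%, 7.63%, 6.34% and 1.51%, from the lowest to the highest GC range. Their intervals overlapped those of D14 alone in every range. The intervals of both days and of D14 alone were apart in the lower pair of GC ranges and overlapped in the upper pair. The part of GC content in the difference was not tested further.

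**Figure D5:**
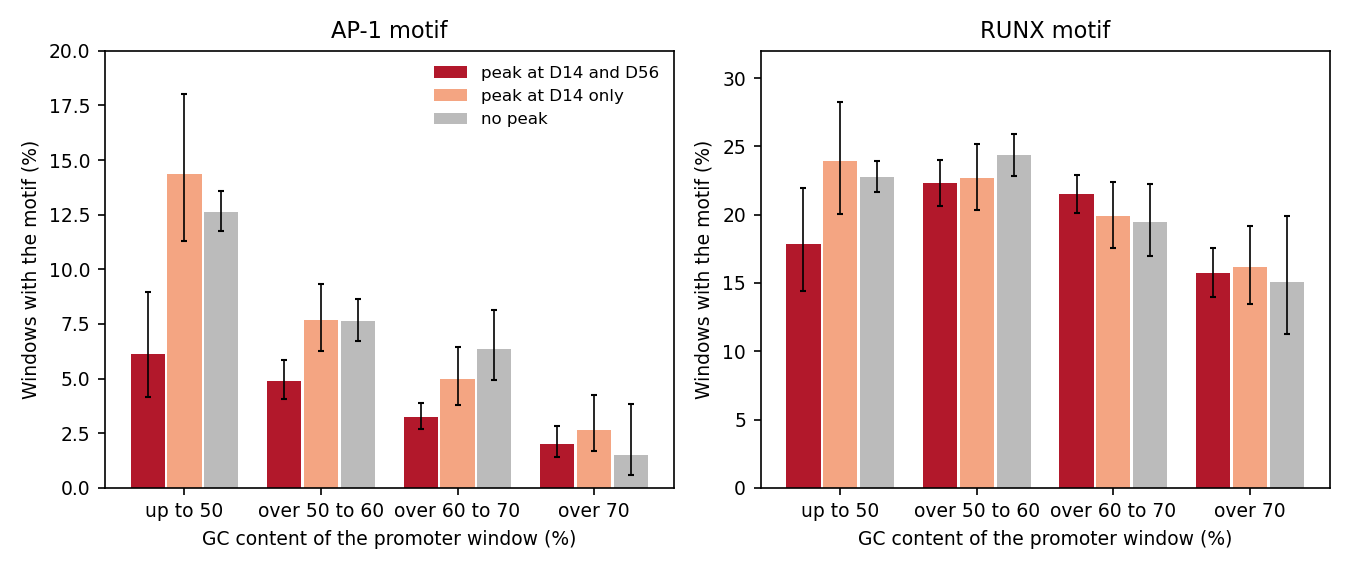
Percent of promoter windows of 300 bases that hold an AP-1 motif (left) or a RUNX motif (right), by GC content of the window (horizontal), for windows with a peak at D14 and D56, at D14 alone, and with none; bars are 95% Wilson intervals. The AP-1 share at D14 alone is above that of both days in each GC range, from 14.4% against 6.12% to 2.66% against 2.01%. Its interval overlaps that of windows with no peak in each range. RUNX shares lie between 15.1% and 24.3% with no common order.

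MicroRNA genes gave paired loci with the same seed and opposite outcomes. A microRNA finds its targets by its seed, bases 2 to 8, shown in capitals. The sequences below are mature forms from RefSeq (GRCm38.p6), shown because RNAs of the same seed are made from loci that differed here, with miR-21a-5p added as a microRNA known from fibrosis.
miR-27a-3p: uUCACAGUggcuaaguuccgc
miR-27b-3p: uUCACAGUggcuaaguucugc
miR-24-3p: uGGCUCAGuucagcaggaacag
let-7a-5p: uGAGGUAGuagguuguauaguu
let-7b-5p: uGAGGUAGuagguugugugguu
miR-21a-5p: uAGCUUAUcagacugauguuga
The first pair share the seed UCACAGU and the let-7 pair share GAGGUAG, while miR-24-3p comes from both Mir24-2 and Mir24-1. Of 919 hairpins 560 carried a D14 peak within 10 kb (60.9%), and 293 of those a D56 peak (52.3%, 48.2 to 56.4). In the cut list 279 of 321 hairpins with a D14 peak had a D56 peak (86.9%). Hairpins of a cluster share their peaks, and many lie in or near protein-coding genes. The following loci were chosen after their values were seen.

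On chromosome 8, Mir23a and Mir27a had 9 D14 peaks and 5 at D56, and Mir24-2 9 and 4, with a highest pileup of 155 at D14. The chromosome 13 copies Mir23b, Mir27b and Mir24-1 had 4 D14 peaks, none above a pileup of 23, and none at D56. The let-7 genes were likewise unequal. Mirlet7a-1 and Mirlet7f-1 had 2 and 2, with pileups of 193 and 47, and Mirlet7e 5 and 4, whereas Mirlet7b and Mirlet7c-2 had 6 and 0, with no pileup above 54, and Mirlet7c-1 3 and 0. In each of these pairs the locus without a D56 peak had the lower D14 pileup. Mir21a, a microRNA raised in many fibrotic tissues, had 9 D14 peaks and 2 at D56. Mir29a and Mir29b-1, which target collagen mRNAs, had 1 D14 peak of pileup 15 and none at D56. Mir199a-2, from an antisense transcript of a dynamin gene, had 2 and 2, and its cluster mate Mir214 2 and 1.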

How the data were processed

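Runx1 ChIP-seq was compared between the D14 and D56 peak lists, 1 library each. Per the labels' protocols, lung cell suspensions were formaldehyde-fixed and amplified with Nextera primers. The submitters' processing notes name mm10, BWA, SAMtools and MACS2. Per the file headers, each list was called with MACS 2.0.10.20120913 against its own input (q-value cutoff 0.01, effective genome 1.87 Gb, background over 1 kb and 10 kb, larger data set scaled to the smaller), unpooled. The deposited columns are the pileup (a signal), the −log10 p-value, the −log10 q-value and the fold enrichment (a ratio), per the file headers. The sources used here give no alignment settings. Tag totals are in the report. Groups came from sample titles.

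Overlaps of 1 bp or more, equal-length lists by pileup (ties by −log10 p) and 95% Wilson intervals were computed with Python 3.11.15, numpy 2.4.6, pandas 2.3.3 and scipy 1.17.1, and figures with matplotlib 3.10.9. The overlap step was tested on simulated data. Genes were protein-coding RefSeq genes of GRCm38.p6. Gene lists held 802 genes, of which 787 matched on chromosomes 1 to 19; the other 15 were not analysed here. The share for like peaks is that of all peaks of the same pileup decile and gene-end class (1 kb), weighted to the list's own mix. The members and lists were chosen with earlier results of these data known. Named genes were the 10 with most D14 peaks and none at D56, the 10 with most D56 peaks, those within 100 kb of the top 10 (D56 without D14: 5) peaks of each set, the RUNX genes, and per list up to 8 with most D14 peaks and 4 with the highest D14 pileup. A few genes that this rule or the lists name are not reported here. Other genes in the report were chosen after their values were seen or complete a small role group. Alternatives were other overlap rules, thresholds, merging, rankings, gene windows and a D14 pileup minimum scaled by input depth. X, Y and mitochondrial peaks were left out of the comparison.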

Additional observations from a re-analysis of the deposited data

Results flagged for a closer look

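Peaks outside chromosomes 1 to 19 entered no comparison above. On the X chromosome 294 of 932 D14 peaks overlapped a D56 peak (31.5%, 28.6 to 34.6), a share above that of the other chromosomes together (25.5%). The Y chromosome held 6 D14 peaks, 0 in sham and 0 at D56. The mitochondrial genome held 15 D14 peaks, 7 in sham and 0 at D56. These are values of single libraries and were not tested.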

How the results depend on the processing

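No paired analysis was possible because each time point has 1 library and no result comes from a test; for the same reason no replicate could be left out. The shares moved with the overlap rule and the threshold, and in the full lists, which differ in length, the D56 share was above the D14 share in each setting run. D14 peaks kept at D56 (25.5%) came to 16.0% with a reciprocal overlap of 50%, 24.8% by summits within 200 bp, 24.8% at a −log10 q of 5 or more, 33.6% at a fold of 5 or more, 27.7% after merging peaks under 500 bp apart, and 33.6% for the 41764 D14 peaks above a pileup of 24.7, the D56 minimum times the input ratio of 2.47. D56 peaks found at D14 (99.4%) came to 60.3%, 93.5%, 99.5% and 96.5% under the first 4 of these and 98.7% under the last. Cut D14 peaks kept (78.2%) came to 48.8%, 76.5%, 79.2%, 77.1% and 80.0% under the first 5, to 72.7% with both lists cut by fold and to 76.8% by −log10 p. D56 peaks in the cut D14 list (81.6%) came, under settings chosen after seeing the data, to 48.8% (reciprocal), 76.5% (summits), 75.8% (fold) and 80.0% (−log10 p). Genes with a D56 peak among those with a D14 peak (73.6%) came to 68.5% in gene bodies alone, 70.5% with 2 kb on each side, 70.5% for peaks in the 1 kb around gene ends, 71.2% at a −log10 q of 5 or more and 92.3% at equal length. The cause of these shifts was not tested.

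Of 27 gene lists, 18 lay below the share of all genes in the full lists and 16 at equal length, 25 on the same side in both. Fibrotic markers were below in every setting run, with 40.0% kept when both lists were cut by fold and 47.1% by −log10 p. Of the 27 lists 24 stayed on their side of all genes when cut by fold and 22 by −log10 p, and in the D56 direction 22 and 23. Lists with under 20 cut peaks, such as fibrotic and adventitial genes, rest on few loci.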
